A study of Mus musculus with 12 samples.

Results

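The proteasome genes were the 47 of 16670 genes in the deposited table whose symbol was Psma, Psmb, Psmc, Psmd, Psme, Psmf or Psmg followed by a number. The rule uses the symbol alone. All 47 passed the filter on low values in the comparison of the fractions, Psma8 only through its stromal vascular libraries. They comprised 8 genes of the 20S alpha ring, 4 non-catalytic and 3 constitutive catalytic genes of the beta ring, and 5 genes that interferon gamma induces (Psmb8, Psmb9, Psmb10, Psme1 and Psme2). The rest were 6 ATPase and 11 non-ATPase genes of the 19S cap, 3 assembly chaperones of the 19S cap, 4 assembly chaperones of the 20S core, and Psme3, Psme4 and Psmf1. Not every member is therefore a subunit. The symbols Psme2b and Psmc3ip begin alike but fall outside the rule, and Psmb11, the thymic catalytic gene, was not analysed here.

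The proteasome is the barrel-shaped protease that degrades proteins tagged with ubiquitin. Its 20S core stacks rings of alpha subunits, which gate the entrance, on rings of beta subunits, of which the products of Psmb5, Psmb6 and Psmb7 cut peptide bonds. The 19S cap binds ubiquitin, removes it, and unfolds the substrate with a ring of ATPases. Under interferon gamma, and constantly in many immune cells, the products of Psmb8, Psmb9 and Psmb10 are built into new cores in place of those of Psmb5, Psmb6 and Psmb7, which gives the immunoproteasome and shifts the peptides offered for display on class I molecules of the major histocompatibility complex. Psme1 and Psme2 encode the subunits of PA28, an activator that replaces the 19S cap. In fat cells, supply of the constitutive proteasome is known to be raised through Nfe2l1, a membrane-bound transcription factor.

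RNA was sequenced from 12 libraries of inguinal white adipose tissue, a subcutaneous depot, of female C57BL/6 mice, whose age the labels do not give. Each library held tissue of 2 mice, which was pooled, digested with collagenase and spun into a floating mature adipocyte fraction and a stromal vascular pellet of progenitor, vascular and immune cells. Each fraction had 3 libraries labelled Kdm5c+/–, heterozygous for this X-linked histone demethylase gene, and 3 labelled Kdm5c+/+, called wild type here. The labels name no transgene, Cre or treatment and do not say which part of Kdm5c was altered.

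Kdm5c itself had a level of 158, 190.3 and 158 CPM, the reads of a gene per 1000000 reads of its library, in mature adipocyte libraries labelled Kdm5c+/–, against 179, 174 and 180.0 CPM in wild type. The stromal vascular values were 194, 190.4 and 175 CPM against 188, 185 and 180.1 CPM. These groups overlapped in both fractions, so the labels are not borne out by this level, and every direction between genotypes below is one between labels. Reads from outside an altered part would still count. The libraries held 21836878 to 29434125 reads over the genes listed, and 3 reads, a floor for counting error only, came to 0.102 to 0.137 CPM. The labelled fractions were borne out by their markers: 12 adipocyte genes summed to 40790 to 56340 CPM in mature adipocyte libraries and 4507 to 8272 CPM in stromal vascular libraries. The sum of 12 genes of all leukocytes was 11.9 to 57.3 CPM against 963 to 1394 CPM, with no gene at 0 throughout either fraction. The highest mature adipocyte value, 57.3 CPM, was that of wild-type replicate 2.

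Promoters of the inducible genes Psmb8 and Psmb9 and of the constitutive catalytic genes Psmb5 and Psmb6 are shown. They were chosen because the comparison turns on the opposite differences of such genes between the fractions. The promoters of Psmb10 and Psmb7 are not printed. Of the 47 genes, 39 matched an entry of RefSeq promoters (GRCm38.p6). Psmb8 and Psmb9 lie on chromosome 17, interleaved with the peptide transporter genes Tap1 and Tap2, in the class II region of the histocompatibility complex. In GRCm38 with GENCODE release M21, Psmb9 runs from 34181987 to 34187764 on the minus strand, Tap1 from 34187553 to 34197225, Psmb8 from 34197721 to 34201454 and Tap2 from 34203527 to 34216321, the last 3 on the plus strand. The RefSeq start sites of Psmb9 and Tap1 were 225 bases apart and pointed away from each other, so these genes share an upstream stretch. Psmb5 lies on chromosome 14 (54614119 to 54618022, minus strand) and Psmb6 on chromosome 11 (70525367 to 70527858, plus strand). Psmb7 lies on chromosome 2 (38588036 to 38644087, minus strand) and Psmb10 on chromosome 8 (105935735 to 105938444, minus strand). Each line below gives the 120 bases before the RefSeq start site, 5′ to 3′ on the gene's strand, with capitals for matches to the motifs named after it. The RefSeq and GENCODE starts differ. The stretches of Psmb8 and Psmb9 lie inside the GENCODE spans of these genes, and that of Psmb5 lies partly inside. The stretches are chr17:34198075-34198194 for Psmb8, chr17:34187331-34187450 for Psmb9, chr14:54617996-54618115 for Psmb5 and chr11:70525237-70525356 for Psmb6.
Psmb8: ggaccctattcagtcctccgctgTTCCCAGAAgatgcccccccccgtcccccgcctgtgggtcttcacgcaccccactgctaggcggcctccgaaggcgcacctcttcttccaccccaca
Psmb9: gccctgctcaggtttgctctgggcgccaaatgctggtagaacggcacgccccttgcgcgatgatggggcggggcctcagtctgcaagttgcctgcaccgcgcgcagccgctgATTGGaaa
Psmb5: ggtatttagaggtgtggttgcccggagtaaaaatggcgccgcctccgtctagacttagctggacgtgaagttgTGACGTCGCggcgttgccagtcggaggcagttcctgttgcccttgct
Psmb6: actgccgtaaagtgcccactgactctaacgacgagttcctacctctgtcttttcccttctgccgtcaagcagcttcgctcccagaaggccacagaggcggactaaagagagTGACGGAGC

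Motifs of 4 kinds were searched on both strands of the 250 bases before each RefSeq start site, from which positions are counted. The capitals in Psmb8 mark the core of a gamma-activated site (TTCNNNGAA), with its first base at -97. Those in Psmb9 mark a CCAAT box on the opposite strand at -8, which is the same stretch that lies before Tap1. Those in Psmb5 and Psmb6 mark the core of an antioxidant response element (TGACNNNGC), the kind of site that Nfe2l1 and Nfe2l2 bind, at -47 and -9. The gamma-activated core was in 2 of 39 members (5.13%, Psmb8 and Psmg1) in 7.02% of all 32851 windows of that length, and in 7.36% of the 12278 windows of genes in the deposited table. The antioxidant core was in 5 of 39 members (12.8%, Psmb5, Psmb6, Psmc6, Psmd9 and Psmd12), in 10.2% of all windows and in 13.8% of those of the table's genes. The core of the interferon-stimulated response element (a pair of GAAA boxes with any 2 bases between them) was in 3 of 39 members (7.69%, Psmb3, Psmd4 and Psmd9) against 2.98% of all windows and 3.25% of the table's. The CCAAT box was in 13 of 39 (33.3%) against 33.9% and 39.4%. These are matches of letters in 1 window per gene and do not show a bound site.

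The first comparison asks how the fractions differ. The inducible catalytic genes Psmb8, Psmb9 and Psmb10 and the PA28 gene Psme1 were lower in mature adipocytes than in the stromal vascular fraction, while the constitutive catalytic genes Psmb5, Psmb6 and Psmb7 were higher. The PA28 partner Psme2 was not called. In bulk libraries, fewer cells of a type and less RNA per cell cannot be told apart.

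Psmb8 encodes the inducible subunit that takes the place of the Psmb5 product. Its level was 34.7, 34.2 and 33.3 CPM in mature adipocyte libraries labelled Kdm5c+/– and 39.8, 36.5 and 27.8 CPM in wild type. In the stromal vascular fraction it was 99.1, 65.9 and 81.2 CPM with the label and 76.8, 97.1 and 76.1 CPM in wild type. The lowest stromal vascular library, Kdm5c+/– replicate 2, was still above every mature adipocyte library. The log2 difference of CPM + 1, mature adipocyte minus stromal vascular, was -1.24 ± 0.11 (SE, n = 6 libraries each, 95% interval -1.49 to -0.99, adjusted p = 6.3e-07 in limma).

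Psmb9, whose product replaces that of Psmb6, showed the same order. The mature adipocyte levels were 24.6, 19.5 and 18.5 CPM in the libraries labelled Kdm5c+/– and 17.7, 16.2 and 17.0 CPM in wild type. The stromal vascular levels were 45.6, 27.9 and 39.5 CPM and 36.1, 40.5 and 33.5 CPM, again without overlap and again lowest in Kdm5c+/– replicate 2. The log2 difference was -0.94 ± 0.11 (adjusted p = 7.9e-06). Psmb9 overlaps Tap1 on the other strand, and 12.5% of the 50-base windows of its transcripts also occur in Tap1. Psmb10, whose product replaces that of Psmb7, shared no such window with another gene. It had 32.7, 27.2 and 40.2 CPM with the label and 32.0, 35.5 and 30.1 CPM in wild-type mature adipocytes. Its stromal vascular levels were 71.9, 53.7 and 60.5 CPM and 57.3, 64.7 and 61.3 CPM. The difference was -0.89 ± 0.10 (adjusted p = 3.2e-06), and the fractions did not overlap.

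The PA28 genes parted. Psme1, the alpha subunit gene, had 58.6, 59.7 and 68.6 CPM with the label and 70.5, 66.9 and 63.2 CPM in wild-type mature adipocytes. Its stromal vascular levels were 114, 90.9 and 95.8 CPM and 102, 106 and 102 CPM. The difference was -0.65 ± 0.07 (adjusted p = 1.4e-06), again without overlap. Psme2, the beta subunit gene, lay between 12.1 and 15.2 CPM in mature adipocytes and between 11.3 and 15.0 CPM in the stromal vascular fraction. Its difference of 0.10 ± 0.08 (95% interval -0.07 to 0.28, adjusted p = 0.233) did not pass, and the fractions overlapped. Of the 50-base windows of Psme2, 59.3% also occur in Psme2b, a near-identical copy that had 55.5 CPM in mature adipocytes and 55.4 CPM in the stromal vascular fraction. How reads shared by such copies were counted is not given in the sources used here, so the level of Psme2 is uncertain.

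The constitutive catalytic genes moved the other way. Psmb7, which encodes the trypsin-like subunit, had 105, 90.1 and 102 CPM with the label and 96.4, 89.8 and 91.9 CPM in wild-type mature adipocytes. Its stromal vascular levels were 49.7, 45.1 and 41.0 CPM and 37.1, 45.1 and 49.3 CPM. The difference of 1.09 ± 0.08 (adjusted p = 4.6e-08) was the highest among the 47 genes on the CPM scale, while with quantile normalization Psmg1 was higher (1.66 against 1.43 for Psmb7). Psmb7 overlaps Nek6 on the opposite strand, shares 28.1% of its windows with it, and Nek6 differed by 0.80 ± 0.10 in the same direction. Psmb5, the chymotrypsin-like subunit gene, had 37.0, 32.3 and 34.8 CPM and 37.5, 35.0 and 35.4 CPM in mature adipocytes. In the stromal vascular fraction it had 23.004, 21.2 and 17.1 CPM and 17.6, 22.1 and 21.4 CPM, a difference of 0.77 ± 0.08 (adjusted p = 2.1e-06). Psmb5 shares 57.1% of its windows with other loci, of which Gm3375 accounts for 49.4%, so its level is uncertain too. Psmb6, the caspase-like subunit gene, shares 2.67%. It had 113, 109.8 and 115 CPM and 106, 102 and 97.7 CPM in mature adipocytes, against 72.6, 70.7 and 65.4 CPM and 67.8, 75.5 and 73.7 CPM (0.59 ± 0.05, adjusted p = 2.0e-07). None of the 3 genes overlapped between the fractions.

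**Figure D1:**
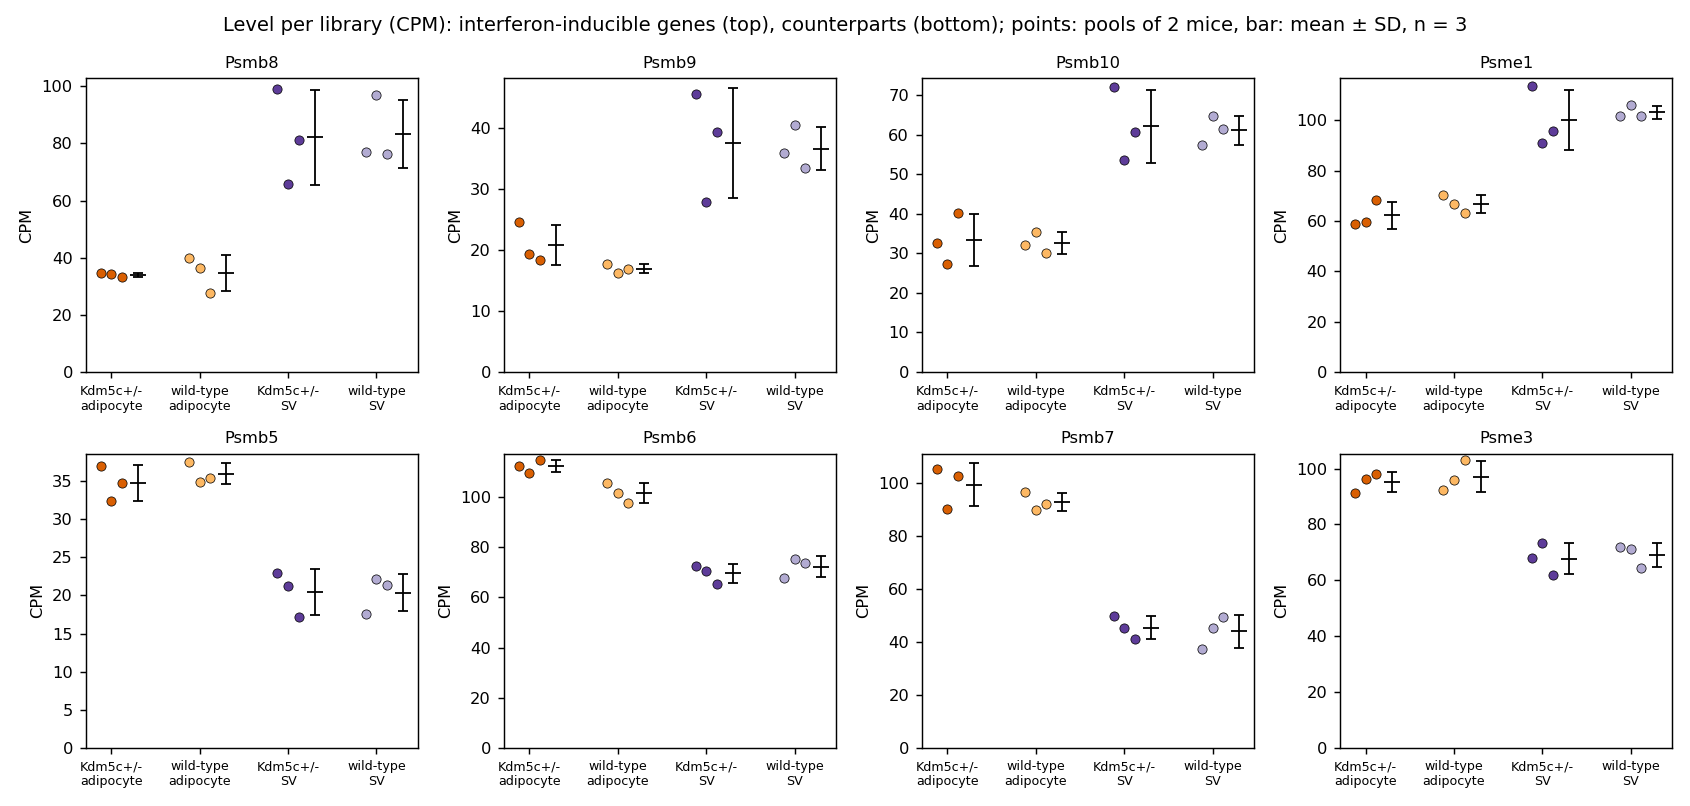
Level in CPM of 4 interferon-inducible genes (top row) and 4 counterparts (bottom row) in each library, by genotype label and fraction (SV, stromal vascular); points are pools of 2 mice and bars give the mean ± SD of 3 libraries. In the top row every stromal vascular point lies above every mature adipocyte point, and in the bottom row every one lies below, on the deposited CPM scale.

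A ratio of an inducible gene to its counterpart within a library does not depend on how libraries are scaled. Psmb8 to Psmb5 was 0.785 to 1.06 in mature adipocytes and 3.11 to 4.74 in the stromal vascular fraction, a 4.17-fold change. Psmb9 to Psmb6 was 0.160 to 0.219 against 0.394 to 0.629, and Psmb10 to Psmb7 was 0.302 to 0.396 against 1.19 to 1.54. Psme1 to Psme3, the gene of the nuclear activator PA28 gamma, was 0.612 to 0.764 against 1.24 to 1.67. In all 4 ratios the 6 libraries of one fraction lay outside those of the other. The lowest stromal vascular value of each was that of Kdm5c+/– replicate 2. The same was seen against the sum of the other 14 genes of the 20S core apart from Psma8, where Psmb8 was 0.0325 to 0.0440 of that sum in mature adipocytes and 0.102 to 0.146 in the stromal vascular fraction. Since Psmb5 and Psmb7 share windows with other genes, the ratios to this sum and to Psmb6 rest on fewer shared reads. The 5 inducible genes together had 150.0 to 176 CPM in mature adipocytes and 252 to 346 CPM in the stromal vascular fraction. The 14 core genes had 829 to 942 CPM against 590.1 to 696 CPM, and all 47 genes 2901 to 3126 CPM against 2266 to 2532 CPM. The summed CPM of proteasome genes was thus higher in mature adipocytes while its inducible share was lower.

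**Figure D2:**
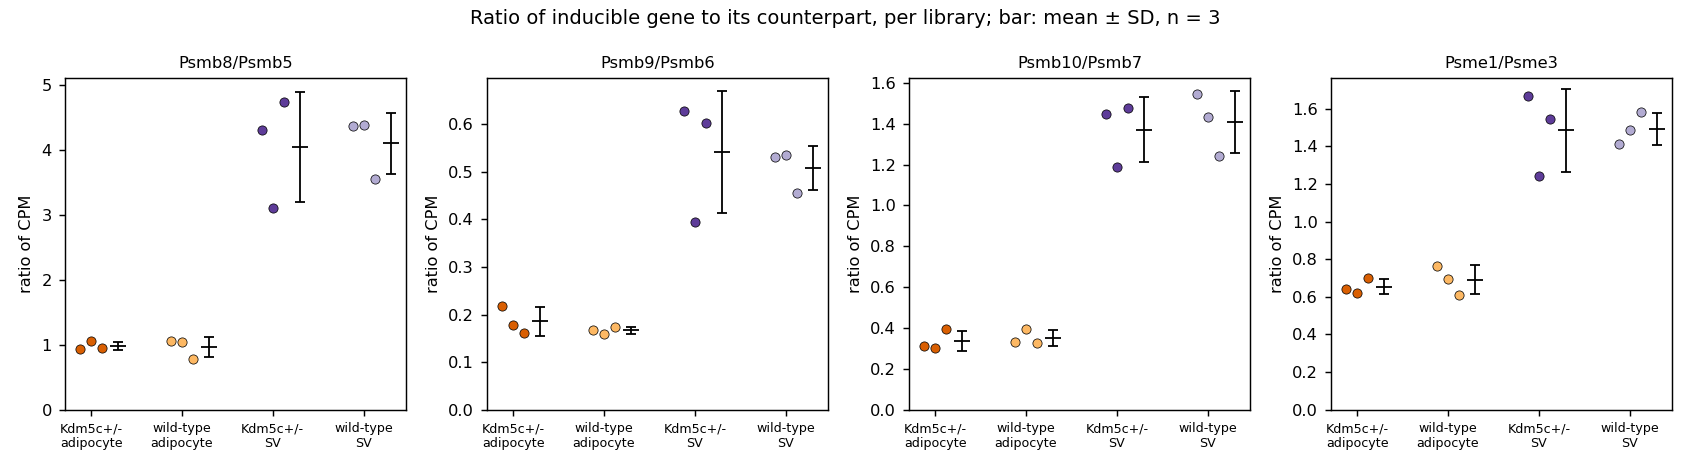
Ratio of the CPM of an inducible gene to that of its counterpart in each library, by genotype label and fraction (SV, stromal vascular); bars give the mean ± SD of 3 libraries. Psmb8/Psmb5 sits at 0.785 to 1.06 in mature adipocytes and at 3.11 to 4.74 in the stromal vascular fraction, and none of the 4 ratios overlaps between fractions.

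Levels of different genes were compared per kilobase of the principal transcript. In the stromal vascular fraction Psme1 (91.4 ± 7.17 CPM per kb, SD, n = 6) and Psmb6 (88.9 ± 4.75) headed the 47 genes and did not differ beyond their spread. Psmb8 there ranked 8 (50.8 ± 7.96), above its counterpart Psmb5 (22.7 ± 2.72). Psmb10 (46.97 ± 4.81) and Psmb7 (38.4 ± 4.19) were closer, and Psmb9 (27.5 ± 4.55) lay far under Psmb6. In mature adipocytes Psmb6 ranked 1 (134 ± 8.19), followed by the non-catalytic Psmb2 (97.6 ± 7.58) and the 19S gene Psmd8 (91.3 ± 7.65), of which the last pair lay within their spread. Psmb10 ranked 30 (25.1 ± 3.44), Psmb8 32 (21.1 ± 2.43) and Psmb9 37 (14.0 ± 2.24). Psmb10 and Psmb8 lay within their spread of each other, and each was under its counterpart, with Psmb5 at 39.3 ± 2.05 and Psmb7 at 82.7 ± 5.66. Per length, Psmb8 thus exceeded Psmb5 in the stromal vascular fraction and was under it in mature adipocytes. Of the windows of Psmb5, 57.1% occur in other loci, and how such reads were counted is not given, so this order is uncertain. Psmb7 and Psme1 share 28.1% and 14.1% of their windows, so their ranks carry the same limit.

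Over all 47 genes, 31 were called higher in mature adipocytes, 6 lower and 10 not. The 6 include Psma8, which reached the filter only where it was high, so its call is not read as a result. Of the 14193 genes tested, 28.7% were called higher and 59.1% lower, 87.8% in either direction. The median of the members was 0.29, against -0.45 for all genes tested. The share of all genes called higher moved with the scaling, from 4072 higher and 8394 lower on the CPM scale to 5721 and 6550 with median-of-ratios scaling, 6612 and 5776 with quantile normalization, 6063 and 6145 with edgeR and 5768 and 6530 with DESeq2. Those 4 scalings moved the median of all genes up by 0.36, 0.53, 0.44 and 0.36 on the log2 scale, so the direction of a gene is read here against that median as well. The median of the members lay 0.67 to 0.78 above that of all genes under all 5. The difference of Psmb8 minus that median was -0.95 to -0.76, of Psmb9 -0.59 to -0.47, of Psmb10 -0.60 to -0.42 and of Psme1 -0.39 to -0.17. Under all 5, 31 members were called higher and 4 lower, the latter being Psmb8, Psmb9, Psmb10 and Psme1, and the remaining 12 were not called the same way by all 5. The size of the lower calls changed more than 1.5 times with the scaling, from -1.24 to -0.79 for Psmb8, -0.94 to -0.50 for Psmb9, -0.89 to -0.43 for Psmb10 and -0.65 to -0.18 for Psme1. In 25 genes every mature adipocyte library was above every stromal vascular one and in 5 below (background 23.2% and 51.4%). The 5 also include Psma8, whose separation is not read as a result, since it passed the filter only through its stromal vascular libraries. Of the 33 members that share at most 10% of their windows with another gene, 23 were called higher and 4 lower on the CPM scale. The latter were Psmb8, Psmb10, Psma8 and Psmd9, of which Psma8 and Psmd9 were not called lower under all 5 scalings. Psmb9 and Psme1 share 12.5% and 14.1% and so are not among the 33.

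**Figure D3:**
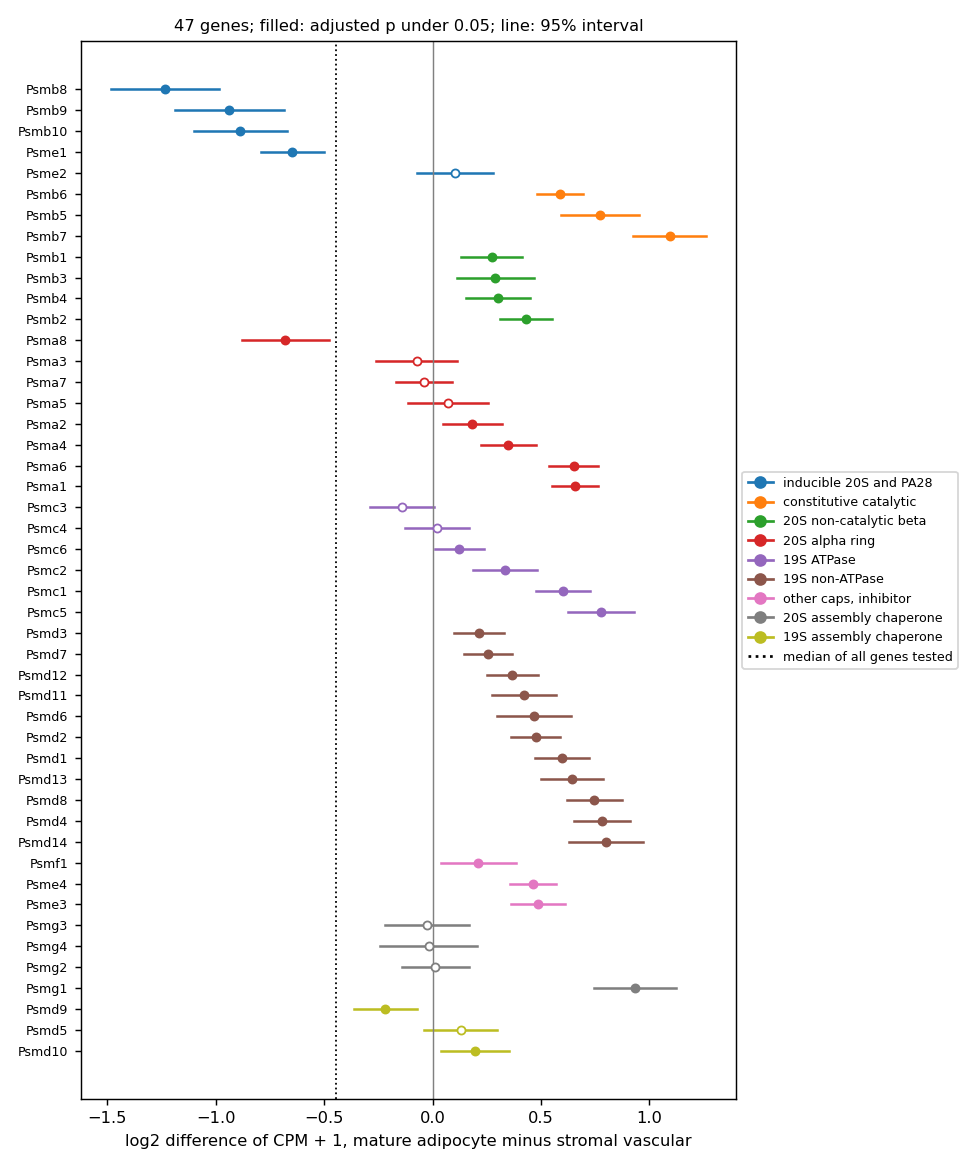
Log2 difference of CPM + 1, mature adipocyte minus stromal vascular, of the 47 genes by role, with 95% intervals; filled points passed at an adjusted p of 0.05 and the dotted line is the median of all genes tested (-0.45). Psmb8, Psmb9, Psmb10 and Psme1 lie left of both lines, and 31 genes are filled on the right; the directions of Psma3, Psma7, Psma8, Psmc3, Psmd9, Psmg3 and Psmg4 flip under another scaling.

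In the alpha ring, which gates the core, 4 of 8 genes were called higher, 3 were not called, and Psma8 is described apart. Psma1 (0.66 ± 0.05) had 77.8 to 103 CPM in mature adipocytes and 54.3 to 59.2 CPM in the stromal vascular fraction, and Psma6 (0.65 ± 0.05) had 80.4 to 92.6 CPM against 51.1 to 58.6 CPM. Neither overlapped. Psma3, Psma5 and Psma7 were not called, with -0.07, 0.07 and -0.04. Psma8, the alpha subunit gene of male germ cells, stood near the floor. It had 11, 11 and 8 reads in mature adipocyte libraries labelled Kdm5c+/–, 1, 2 and 5 in wild type, and 18 to 31 reads in stromal vascular libraries. It passed the filter through 4 stromal vascular libraries and none of the mature adipocyte libraries, so its difference is given without its test. That was -0.68 on the CPM scale, 0.11 after quantile normalization, -0.55 after median-of-ratios scaling, -1.81 in edgeR and -1.92 in DESeq2. All 4 non-catalytic beta genes were called higher, from 0.27 ± 0.06 for Psmb1 to 0.43 ± 0.05 for Psmb2.

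All 11 non-ATPase genes of the 19S cap were called higher. Psmd14, the deubiquitinase of the lid, had 64.3 to 82.9 CPM in mature adipocytes and 33.8 to 43.0 CPM in the stromal vascular fraction (0.80 ± 0.08). Psmd4, a ubiquitin receptor, had 103 to 119.9 CPM against 56.9 to 69.8 CPM (0.78 ± 0.06). Psmd8, another lid gene, had 127 to 157 CPM against 76.0 to 92.5 CPM (0.75 ± 0.06). The smallest difference of the 11 was that of Psmd3 (0.21 ± 0.05), whose fractions overlapped. Of the 6 ATPase genes, 4 were called higher, led by Psmc5 with 75.0 to 96.9 CPM against 44.6 to 54.7 CPM (0.77 ± 0.07). The call of Psmc6 (0.12 ± 0.05, adjusted p = 0.042) was lost with the replicate number as a block (0.12, adjusted p = 0.062) and in 7 of 12 fits that each left out 1 library, which were mature adipocyte Kdm5c+/– replicates 1, 2 and 3 and wild-type replicates 1 and 3, and replicate 1 of either label in the stromal vascular fraction (0.095 to 0.13, adjusted p = 0.054 to 0.107). Psmc3 (-0.14 ± 0.07) and Psmc4 (0.02 ± 0.07) were not called. Psmc3 was called lower without either of 2 libraries, mature adipocyte Kdm5c+/– replicate 3 (-0.19, adjusted p = 0.012) or stromal vascular wild-type replicate 1 (-0.18, adjusted p = 0.029).

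The alternative caps were called higher, Psme3 with 91.2 to 103 CPM against 62.0 to 73.3 CPM (0.48 ± 0.06) and Psme4, the gene of the activator PA200, with 127 to 173 CPM against 102 to 111 CPM (0.46 ± 0.05). The inhibitor gene Psmf1 had 28.7 to 39.2 CPM against 25.9 to 32.2 CPM (0.21 ± 0.08), and its call was lost when mature adipocyte Kdm5c+/– replicate 3 or wild-type replicate 2, or replicate 2 of either label in the stromal vascular fraction, was left out (0.16 to 0.20, adjusted p = 0.052 to 0.061). Of the core chaperone genes, Psmg1 had 16.9 to 21.98 CPM in mature adipocytes and 7.69 to 11.3 CPM in the stromal vascular fraction (0.93 ± 0.09, adjusted p = 5.5e-07), the next highest after Psmb7. Its partner Psmg2 (0.01 ± 0.07), and Psmg3 (-0.03 ± 0.09) and Psmg4 (-0.02 ± 0.10), which act as a pair, were not called. Of the chaperone genes of the 19S cap, Psmd10 was called higher (0.20 ± 0.07) and Psmd5 was not (0.13 ± 0.08). The call of Psmd10 was lost without replicate 1 of either label in mature adipocytes, or without Kdm5c+/– replicate 2 or wild-type replicate 1 in the stromal vascular fraction (0.16 to 0.18, adjusted p = 0.052 to 0.060). Psmd5 was called without mature adipocyte Kdm5c+/– replicate 2 (0.18, adjusted p = 0.020). Psmd9 was called lower (-0.22 ± 0.07, adjusted p = 0.0090), but had 0.16 to 0.29 under the other 4 scalings.

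Genes that work with the proteasome were called higher in 15 and lower in 2 of 23 cases (median 0.43), or 21 and 0 under the other 4 scalings. They included the shuttle receptor gene Ubqln1 (1.37 ± 0.05), the deubiquitinase gene Usp14 (0.65 ± 0.05), Nploc4 (0.69 ± 0.05) and the segregase gene Vcp (0.51 ± 0.05). Of 12 genes known to regulate proteasome genes, 2 were called higher and 8 lower (median -0.33), against 28.7% and 59.1% of all genes. Under the other 4 scalings 4 to 5 were called higher and 4 to 5 lower, and the median turned to 0.048 to 0.14. Nfe2l1 had 659.8 to 753 CPM in mature adipocytes and 471 to 556 CPM in the stromal vascular fraction (0.45 ± 0.06, adjusted p = 2.2e-05). Nfe2l2, the related factor of the response to oxidants, had 71.7 to 82.2 CPM against 162 to 192 CPM (-1.15 ± 0.06), and neither gene overlapped between the fractions. Zfp143 (-1.58 ± 0.07), Mafk (-1.53 ± 0.14) and Stat3 (-0.74 ± 0.07) were also lower.

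Of 17 tested genes of class I antigen presentation, 12 were called lower in mature adipocytes and 2 higher (median -0.62). Tap2, beside Psmb8, had 69.8 to 90.7 CPM in mature adipocytes and 144 to 189.7 CPM in the stromal vascular fraction (-1.12 ± 0.07). H2-T24 (-3.72 ± 0.09), H2-M3 (-3.20 ± 0.16) and H2-T23 (-2.13 ± 0.09) had the other differences of smallest p. B2m (0.47 ± 0.09), the light chain of class I molecules, and H2-D1 (0.37 ± 0.08), a heavy chain, were the 2 called higher, named because the count was small; H2-D1 was not called with quantile normalization (0.11, adjusted p = 0.234). The counts of this list moved to 5 higher and 10 lower with median-of-ratios scaling and to 6 and 8 with edgeR. Of 27 genes of the interferon gamma pathway, 22 were called lower and 3 higher (median -0.87), among the former the kinase genes Jak2 (-1.71 ± 0.06) and Jak1 (-1.36 ± 0.05), Ifi47 (-3.21 ± 0.13) and Irf9 (-1.40 ± 0.07). Of 20 type I interferon genes, 17 were called lower and 1 higher (median -1.12), with Bst2 at -1.67 ± 0.07 and Oas2 at -3.41 ± 0.24. The 1 called higher was Ifi27l2a (3.34), with a mean of 491 CPM in mature adipocytes and 51.5 CPM in the stromal vascular fraction. In the interferon gamma list Cxcl10 had the highest difference (2.82), with 51.7 CPM against 6.53 CPM. The background was a median of -0.45 with 59.1% called lower.

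The inducible genes were set beside markers of stromal cells, as the mature adipocyte mean in percent of the stromal vascular mean. It was 41.6% for Psmb8, 50.8% for Psmb9, 53.5% for Psmb10 and 63.5% for Psme1. It was 46.1% for Tap1 and 45.6% for Tap2. Over 12 leukocyte genes it was 1.33% to 2.64%, with Ptprc, the pan-leukocyte phosphatase, at 1.42%. It was 0.703% to 3.34% over 11 T and NK cell genes, 1.20% to 2.50% over 6 B cell genes and 0.715% to 4.40% over 10 endothelial genes. The range was wider over 9 macrophage genes (1.64% to 16.6%, median 1.89%), 11 dendritic cell genes (0.565% to 14.4%, median 1.93%) and 10 progenitor genes (0.582% to 22.2%, median 1.38%), whose highest were Cd14, Zbtb46 and Col1a1. Over 7 pericyte and smooth muscle genes it ran from 1.44% to 110.6% (median 2.78%), the highest being Cspg4 and Acta2 (30.4%). Over 8 mammary epithelium genes it ran from 0.502% to 573% (median 0.956%), with Trp63 alone above 1.17%. These highest genes are named after their values were seen. The medians of all these lists were thus below the 4 inducible genes, and the part of such cells in the differences of the inducible genes was not tested. Without wild-type mature adipocyte replicate 2, where the leukocyte sum was highest, and without each other library in turn, the difference of Psmb8 was -1.31 to -1.16, of Psmb9 -1.04 to -0.86, of Psmb10 -0.96 to -0.82 and of Psme1 -0.68 to -0.60. In wild-type libraries alone these 4 genes differed by -1.25, -1.07, -0.89 and -0.62, and in libraries labelled Kdm5c+/– by -1.22, -0.81, -0.88 and -0.67, all with adjusted p of at most 0.0070 in limma.

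The second comparison asks whether the genotype labels differ within mature adipocytes. None of the 46 genes tested was called (0 of 46, with 0.0% of 11913 genes called), and Psma8 was under the filter there. At an unadjusted p under 0.05 there were 3 members in limma, against 14.6% of all genes, and edgeR and DESeq2 called 0 members with 6 each unadjusted. The members' median was 0.02 and that of all genes -0.03. For the inducible genes the log2 difference, Kdm5c+/– minus wild type, was -0.01 for Psmb8 (95% interval -0.32 to 0.30), 0.27 for Psmb9 (-0.01 to 0.56), 0.02 for Psmb10 (-0.32 to 0.37), -0.10 for Psme1 (-0.31 to 0.11) and 0.10 for Psme2 (-0.16 to 0.36). For the constitutive genes it was -0.05 for Psmb5 (-0.24 to 0.14), 0.14 for Psmb6 (-0.02 to 0.31) and 0.09 for Psmb7 (-0.11 to 0.29). These intervals hold both no difference and differences of about the size of their bounds. Libraries did not overlap in 5 genes on the higher side (Psmb9, Psmb6, Psma1, Psma7 and Psmg1, background 9.44%) and 2 on the lower side (Psme4 and Psmc6, background 12.6%).

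The smallest p was that of Psme4, whose product caps the core and acts in ubiquitin-independent degradation. Its level was 135, 127 and 137 CPM in mature adipocyte libraries labelled Kdm5c+/– and 155, 161 and 173 CPM in wild type. Every labelled library was below every wild-type one, with a difference of -0.29 ± 0.08 (n = 3 each, adjusted p = 0.279 in limma), which did not pass. Psmg1 followed with 21.1, 19.9 and 21.98 CPM against 16.9, 17.1 and 18.8 CPM (0.25 ± 0.09, adjusted p = 0.300), and Psma1 with 97.9, 103 and 93.3 CPM against 87.6, 77.8 and 86.1 CPM (0.22 ± 0.08, adjusted p = 0.306). These 3 genes were named for their p, so their separation is a description. Markers of other cells differed between the same libraries without a call: the median was -0.50 over 7 tested leukocyte genes, -0.46 over 9 macrophage genes, -0.76 over 4 dendritic cell genes, -0.75 over 10 endothelial genes, -0.50 over 9 progenitor genes and -0.93 over 7 pericyte and smooth muscle genes. It was 0.20 over 12 adipocyte genes. Wild-type replicate 2 stood apart in the immune lists: its sums were 57.3 CPM of leukocyte, 119.2 CPM of macrophage and 165 CPM of dendritic cell genes, against 11.9 to 19.8, 43.2 to 49.6 and 37.9 to 54.9 CPM in the other 5 libraries. Without it the medians were -0.17 over 6 leukocyte genes, -0.078 for macrophages, -0.20 for dendritic cells, -0.27 for progenitors, -0.74 for endothelium and -0.78 for pericytes. The endothelial median was -0.49 without Kdm5c+/– replicate 2, and the leukocyte and progenitor medians were -0.82 and -0.76 without wild-type replicate 3. Their part in the values of Psme4, Psmg1 and Psma1 was not tested.

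In the stromal vascular fraction 0 of 47 genes were called, with 0.00725% of 13792 genes called, and 0 members had an unadjusted p under 0.05 in limma, edgeR or DESeq2, against 7.56% of all genes in limma. The labels overlapped in all 47 genes, while 3.74% of all genes lay apart with the label higher and 9.74% with it lower. Differences were -0.03 for Psmb8 (95% interval -0.42 to 0.35), 0.01 for Psmb9 (-0.40 to 0.43), 0.01 for Psmb10 (-0.25 to 0.28), -0.05 for Psme1 (-0.27 to 0.17) and 0.12 for Psme2 (-0.16 to 0.39). They were 0.0026 for Psmb5 (-0.31 to 0.32), -0.05 for Psmb6 (-0.24 to 0.13) and 0.05 for Psmb7 (-0.23 to 0.33). The intervals of Psmb8 and Psmb9 were wider than those of Psme1 and Psmb6. Their libraries labelled Kdm5c+/– spread from 65.9 to 99.1 CPM and from 27.9 to 45.6 CPM. The smallest p were those of Psmd3, a scaffold gene of the lid (-0.16 ± 0.08, adjusted p = 0.667), Psmg3 (0.20 ± 0.14, adjusted p = 0.724) and Psmc6 (-0.11 ± 0.09, adjusted p = 0.754). Cell markers differed between these libraries too, without a call. The median was 0.65 over 12 adipocyte, 0.33 over 9 macrophage, -0.39 over 7 pericyte and smooth muscle and -0.20 over 10 endothelial genes. It was -0.02 over 12 leukocyte, -0.01 over 11 dendritic cell and 0.03 over 10 progenitor genes. The part of these cells in the members' values was not tested.

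**Figure D4:**
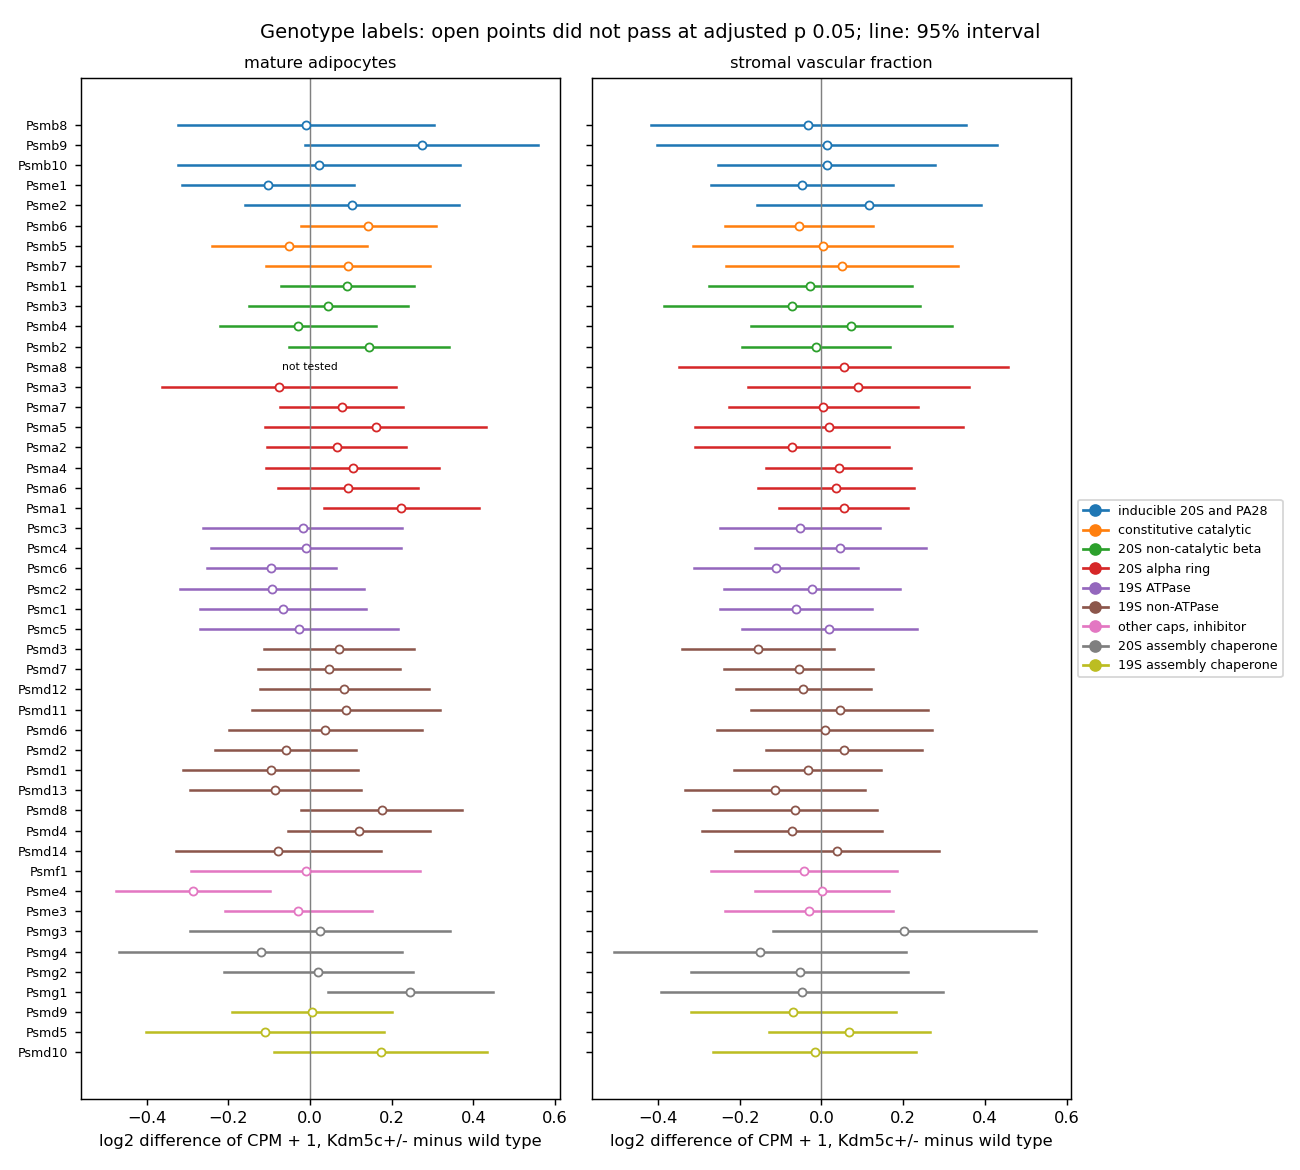
Log2 difference of CPM + 1, Kdm5c+/– minus wild type, of each gene in mature adipocytes (left) and in the stromal vascular fraction (right), with 95% intervals; colours give the role. All points are open, since no gene passed at an adjusted p of 0.05, and Psme4 at -0.29 is the leftmost on the left.

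The last comparison asks whether the label difference is unlike in the fractions. It was called for 0 of 47 genes (0.0% of 14193 genes), and 1 member had an unadjusted p under 0.05 in limma (2 in edgeR and 4 in DESeq2), against 8.93% of all genes. That member was Psme4, at -0.29 ± 0.10 (adjusted p = 0.509). Its stromal vascular levels were 102, 109.9 and 107 CPM with the label and 106, 111 and 103 CPM in wild type, which overlapped. Psmd3 (0.23 ± 0.11, adjusted p = 0.562) and Psmd8 (0.24 ± 0.12, adjusted p = 0.578) had the next smallest p. For Psmb8 the difference between fractions was 0.02 (95% interval -0.48 to 0.52) and for Psmb9 0.26 (-0.24 to 0.76).

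Lists around the proteasome gave no call between the labels either (0 in each fraction). Of 20 type I interferon genes, 16 had a positive difference in mature adipocytes (median 0.37) and 19 in the stromal vascular fraction (median 0.43), against 5139 of 11913 and 5600 of 13792 genes tested. An unadjusted p under 0.05 was seen for 7 and 9 of the 20, against 14.6% and 7.56% of all genes, with Irf7 at 1.07 ± 0.26 and Zbp1 at 0.92 ± 0.19 in mature adipocytes (adjusted p = 0.273 each). Over the 5 inducible proteasome genes the median was 0.02 and 0.01. Of 17 class I presentation genes, 13 had a positive difference in mature adipocytes (median 0.09), with Calr at 0.63 ± 0.13, Tap2 at 0.22 ± 0.08 and Tap1 at 0.27 ± 0.12, and 14 in the stromal vascular fraction (median 0.07).

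Genes that varied like Psmb8 and Psmb9 within the groups were ranked over the 12 libraries. Likeness was measured as Pearson's r between a gene's deviations from its group means and the mean deviation of Psmb8 and Psmb9, for 11267 genes with a mean of at least 5 CPM. Sez6 and Paqr8, named below, reached the mean of 5 CPM only through the stromal vascular libraries, so their r rests mainly on those. Sez6 had 0.35 to 0.79 CPM in mature adipocytes and 7.3 to 13.9 CPM in the stromal vascular fraction, and Paqr8 0.32 to 0.71 CPM and 9.5 to 15.3 CPM. The 8 other genes with the highest r were Abhd6 (0.959), Sez6 (0.953), Tufm (0.942), Tap2 (0.940), Ddx19a (0.926), Inpp5b (0.924), Vps11 (0.914) and Paqr8 (0.912). Of these, Tap2 lies in the histocompatibility complex. Other genes of that complex and of the interferon gamma list, named after their values were seen, stood further down. Among them were H2-Q4 (0.897, rank 16), H2-K1 (0.876, rank 24), Tap1 (0.869, rank 27) and Cxcl9 (0.866, rank 29). Among the other members, Psmd3 (0.767, rank 122) and Psmd10 (0.707, rank 261) stood highest. The inducible genes Psme1 (0.604, rank 662) and Psmb10 (0.491, rank 1305) lay below them. All genes of a library share its depth and digestion, so these are descriptions over 12 libraries without a test. Kdm5c+/– stromal vascular replicate 2 was the lowest of its group for Psmb8, Psmb9, Tap1 (69.3 CPM against 120.1 and 104), Tap2 (144 against 189.7 and 166) and H2-K1 (1081 against 1554 and 1303). Its level of Ptprc, at 126 CPM, was also the lowest of its group, against 205 and 188 CPM. So were its sums of leukocyte (995 against 1387 and 1372 CPM), T and NK cell (290 against 438 and 423 CPM) and B cell genes (39.0 against 119 and 172 CPM). Its macrophage sum, however, was the highest of its group (3431 against 2253 and 2994 CPM). Its dendritic cell sum lay between the others (3268 against 2525 and 3418 CPM). Wild-type stromal vascular replicate 3 had the lowest Ptprc of all stromal vascular libraries (112.5 CPM), with Psmb8 at 76.1 CPM, the lowest of its group. Replicate 1 of that group, with a close 76.8 CPM of Psmb8, had the highest Ptprc (238 CPM). In the stromal vascular libraries labelled Kdm5c+/–, Psmb8 at 99.1, 65.9 and 81.2 CPM had the same order as Ptprc. The part of leukocytes in these levels was not tested.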

How the data were processed

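The NuGEN kit used keeps strand information, per the labels' protocols. The submitters' processing notes name STAR 2.7.2a, edgeR 3.26.8 and GRCm38; which counting tool, strand setting and gene models were used is not stated there. The values as deposited are CPM, and 100% were whole multiples of 1 read within 0.05 read, so reads were recovered for count tests. Genes reaching 1 CPM in 3 or more of the fitted libraries were tested on log2(CPM + 1) by limma 3.58.1 (R 4.3.3), two-sided, with a mean-variance trend and robust moderation of the spread, and Benjamini-Hochberg adjustment over all genes and a threshold of 0.05. The fraction fit and the test of unlike label differences used 12 libraries, the label fits 6 each. P-values measure the spread between pools of 2 mice within groups. The main fraction fit treated its 12 libraries as independent and did not use the pairing given below, which only the replicate block did. Alternatives were other pseudocounts, filters and scalings, edgeR 4.0.16 and DESeq2 1.42.0 on recovered reads, a replicate block, and fewer or more libraries. Fraction libraries of 1 label and number are taken as pairs, from the data, since their deviations correlated at 0.169 to 0.278 in all 6. The members and lists were chosen with earlier results of these data known. Named were the 8 catalytic, inducible and PA28 genes, up to 4 other called members per direction by size or else the 3 of smallest p, and up to 4 genes per list by p; other names were added after their values were seen. Shared windows were 50-base stretches of GENCODE M21 transcripts found in another gene. Scripts were tested on simulated data. Tables and figures were made in Python 3.11.15 with matplotlib 3.10.9.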

Additional observations from a re-analysis of the deposited data

How the results depend on the processing

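Between the fractions, members called higher ranged from 26 to 42 and lower from 4 to 7 over the other scalings, filters, pseudocounts and sets of libraries, the replicate block giving 30 and 6 (Psmc6 lost its call, adjusted p = 0.062) and single libraries left out 29 to 31 and 6 to 7. Leaving out members that share over 10% of their windows, an alternative chosen after seeing the data, gave 23 and 4. It left out Psmb9 and Psme1, and the 4 were Psmb8, Psmb10, Psma8 and Psmd9. Psma8 turned to 0.11 with quantile normalization, and Psmd9 to 0.16, 0.29, 0.24 and 0.16 under median-of-ratios, quantile, edgeR and DESeq2 scaling in that order. What turned them was not tested.

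No alternative called a member between the labels. In mature adipocytes the count over all genes was 250 with DESeq2, 1 with all 12 libraries and 0 to 3 with single libraries left out, 3 without Kdm5c+/– replicate 3. In the stromal vascular fraction it was 53 with DESeq2, 4 with all 12 libraries, 0 with the replicate block and 0 to 0 with single libraries left out. For the difference between the label differences it was 67 with DESeq2 and 0 to 7 with single libraries left out, 7 without mature adipocyte Kdm5c+/– replicate 3. The replicate block changed no member's call between labels. Same-numbered libraries of the labels correlated at -0.026 to 0.341 in mature adipocytes and -0.281 to 0.184 in the stromal vascular fraction, so they are taken to share only a number.

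Directions near 0 turned. Under the same 4 scalings, Psmb8 went to 0.032, 0.035, 0.016 and 0.014 in mature adipocytes and to 0.0057, 0.015, 0.014 and 0.019 in the stromal vascular fraction. Psme1 went to 0.0011 there with quantile normalization. For the difference between label differences, Psmb8 went to -0.019 with edgeR and -0.0068 with DESeq2. With single libraries left out, the mature adipocyte label difference of Psmb8 ranged from -0.16 to 0.093 and of Psmb10 from -0.12 to 0.16. In the stromal vascular fraction Psmb8 ranged from -0.18 to 0.12, Psmb9 from -0.14 to 0.21, Psmb10 from -0.10 to 0.11, Psme1 from -0.14 to 0.018, Psmb5 from -0.095 to 0.12 and Psmb7 from -0.062 to 0.14. The difference between label differences ranged from -0.13 to 0.17 for Psmb8, -0.13 to 0.14 for Psmb10, -0.12 to 0.040 for Psme1, -0.10 to 0.061 for Psme2, -0.17 to 0.044 for Psmb5 and -0.044 to 0.16 for Psmb7. At 21836878 to 29434125 reads, depth limits Psma8 among the members.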
